A study of Mus musculus with 6 samples.

Results

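The matrix metalloproteinases (MMPs), the disintegrin-like metalloproteinases with thrombospondin motifs (ADAMTS), their protease-free relatives (ADAMTSL) and the tissue inhibitors of metalloproteinases (TIMPs) were followed in mouse tail tissue fibroblasts. Members were all mouse symbols made of Mmp, Timp, Adamts or Adamtsl and a number, Mmp with an optional letter. Of 51 such symbols in the gene table, 50 had a probe on the array, among 45616 genes in all, and Mmp27 had none. They comprised 22 Mmp, 4 Timp, 19 Adamts and 5 Adamtsl genes, read by 75 probes. The rule for membership uses symbols alone, and the families were chosen with earlier results of these data known.

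All 6 samples were cultured cells from C57BL/6 mice that carried LH2F/F, a floxed allele of lysyl hydroxylase 2 (gene symbol Plod2), together with CAG-Cre, a recombinase driven by a promoter active in most cell types. The cells labelled no.1 received tamoxifen for 24 h and were kept in medium with tamoxifen. The cells labelled no.2 received tamoxifen for 24 h and were kept in medium without it. Control cells had the same genotype and were kept in medium without tamoxifen. Each group had 2 arrays. Every sample given tamoxifen carried both the floxed Plod2 allele and CAG-Cre, so the intended deletion and the drug cannot be told apart against control. Whether replicate arrays represent separate cultures or animals is not stated in the labels. The p-values therefore cover only the spread among these arrays, and that spread may be technical.

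MMPs and ADAMTS enzymes are secreted or membrane-anchored zinc proteases that are made as inactive precursors and cut collagens, proteoglycans and other matrix proteins once their propeptide is removed. TIMPs are small secreted proteins that bind the active site of these enzymes. Fibroblasts are a main source of both enzymes and inhibitors in skin and tendon, where the balance between them is known to set the rate of matrix turnover.

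Signals were read as scaled levels, which are a probe's background-subtracted signal divided by the 75th percentile of all non-control probes on its array. A probe was taken as measured where the scanner software called it well above background. That percentile was 95.9 and 85.1 in no.1, 55.1 and 56.9 in no.2 and 34.2 and 33.7 in control. From 53.4% to 53.5% of probes were well above background in no.1, 48.4% to 48.6% in no.2 and 44.2% to 45.7% in control. Relative to the arrays' spike-in RNAs, the percentile was 3.76 to 3.91 times the control mean in no.1 and 1.99 to 2.98 times in no.2, so a level scaled by the percentile and a level scaled by the spike-ins differ by these factors. All 6 arrays lay on 1 slide, with the control arrays in row 1 and the others in row 2, so slide row and treatment cannot be told apart against control. The file names give 24 h for the first and 48 h for the second array of no.1 and of no.2, while the labels give 24 h for all 4. The single Plod2 probe had scaled levels of 0.331 and 0.201 in no.1, 0.242 and 0.151 in no.2 and 1.23 and 1.04 in control. Its place relative to the deleted part could not be checked here. This fall is relative to the percentile, with a log2 fold change of -2.13 in no.1 against control. Scaling by the spike-ins instead adds 1.94 to the log2 fold change in no.1 and 1.29 in no.2. Of 10 fibroblast markers, 9 were well above background on both arrays of every group, and lumican (Lum) was below it on all 6 arrays. Their summed level was 1132 to 1153 in no.1, 1368 to 1492 in no.2 and 1478 to 1539 in control. Of the 9 tested, 4 were called lower and 1 higher in no.1, and 3 lower and 1 higher in no.2. Of all genes, 26.4% were called lower and 21.4% higher in no.1, and 16.2% and 12.1% in no.2. With spike-in scaling, where most genes were called higher, 4 were higher and 1 lower in no.1, and 4 higher and 0 lower in no.2. Their part in the results below was not tested. The 4 macrophage markers measured were Cd68, Csf1r, Cd14 and Itgam, while the defining Adgre1, Ptprc, Lyz2, Fcgr1 and Mrc1 were below background on all 6.

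Relative to the array's 75th percentile, most called members were lower in the treated cells, and a small set of ADAMTS genes was higher. Of the 50 members, 33 were measured on both arrays of at least 1 group and could be tested. In no.1 against control, 3 members were higher, 21 lower and 9 not called, where 21.4% of all 23060 genes tested were called higher and 26.4% lower. In no.2 against control, 5 were higher, 15 lower and 13 not called, against 12.1% and 16.2% of all genes. Those counts of no.2 rest on the control arrays, since 1 higher and 6 lower were left without the first control array and 0 higher and 6 lower without the second. Without the second no.2 array they were 2 and 11. The no.1 counts were 1 higher and 16 lower without the first no.1 array, 2 and 17 without the second, 1 and 16 without the first control array and 1 and 17 without the second. The calls over all genes were also fewer in each of these fits than with all arrays, so the loss in them is not particular to the members. Without the first no.2 array, fewer members but more of all genes were called lower in no.2 than with all arrays. A call is an adjusted p under 0.05 from limma's moderated test (Benjamini-Hochberg over all genes). The median log2 fold change of the tested members was -1.31 in no.1 and -1.04 in no.2, beside -0.12 and -0.10 over all genes. A member could enter the test through the group where it was high, so these counts describe the measured members and not the families as a whole. Per family, the 4 Timp genes were all called lower in both groups. Of 14 tested Mmp genes, none was called higher, 9 were lower in no.1 and 6 in no.2. Of 12 Adamts genes, 3 were higher and 5 lower in no.1, and 5 higher and 2 lower in no.2. The 3 tested Adamtsl genes were lower in both.

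**Figure D1:**
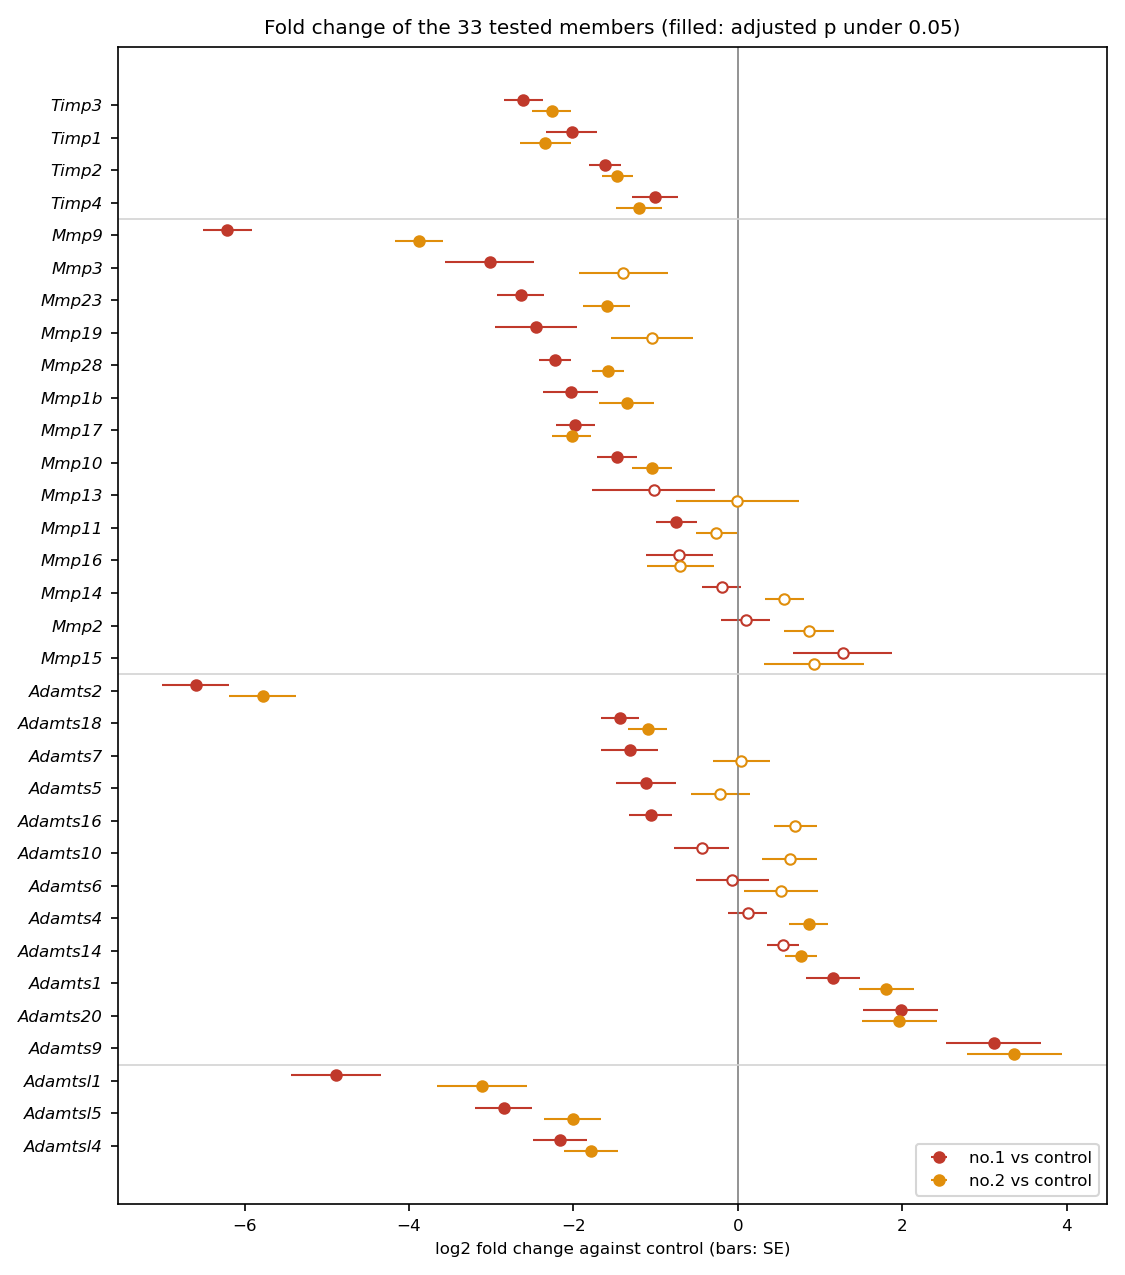
Log2 fold change against control (horizontal axis, bars are the standard error) of the 33 tested members, grouped from top to bottom as Timp, Mmp, Adamts and Adamtsl genes. Red points are no.1 and orange points no.2, and filled points have a limma adjusted p under 0.05. The Timp and Adamtsl points all lie left of 0 on this scale (with spike-in scaling Timp2 in no.1 and Timp4 in both groups turn to the right), and Adamts1, Adamts9 and Adamts20 lie right of it in both groups. Where a probe was below background on all arrays of a group (Mmp9 in the treated groups, Mmp1b and Timp4 in no.2, Adamts16 in no.1 and control, and Adamts6, Adamts9, Adamts20 and Mmp15 in control), the point is a fitted value and not a measured fold.

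Most lower calls depended on the scale. Scaling by the 7 spike-in probes instead of the percentile adds 1.94 to every log2 fold change in no.1 and 1.29 in no.2, and it moved the median over all genes to 1.82 and 1.18. On that scale 18973 of all 23060 genes were called higher and 422 lower in no.1, and 15031 and 534 in no.2. The members had 12 higher and 3 lower calls in no.1 and 12 higher and 5 lower in no.2. The lower calls that remained were Adamts2, Adamtsl1 and Mmp9 in no.1, and these with Timp1 and Timp3 in no.2. Of the lower calls, 13 of 21 in no.1 and 12 of 15 in no.2 kept their sign. All 3 and all 5 higher calls remained. Quantile normalization gave 3745 higher and 3107 lower calls over all genes in no.2, against 2790 and 3728 with the percentile, and 6 and 15 among the members. What does not depend on the scale is a member's place among the other genes of the same comparison. Of the 33 members, 25 lay below the median of all genes in no.1 and 20 in no.2. Every change below is relative to the array's 75th percentile unless the spike-in scale is named.

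**Figure D2:**
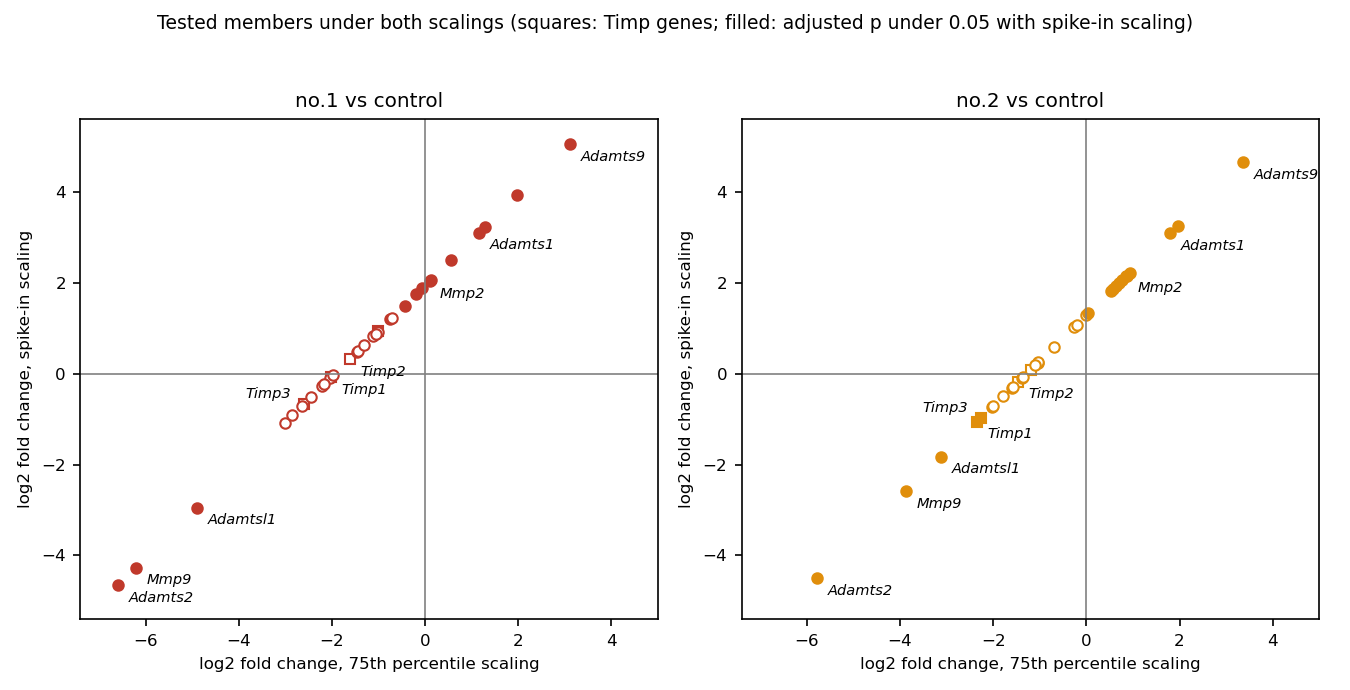
Log2 fold change of each tested member with 75th percentile scaling (horizontal axis) and with spike-in scaling (vertical axis), for no.1 (left panel) and no.2 (right panel) against control. Squares are Timp genes and filled symbols have an adjusted p under 0.05 with spike-in scaling. Adamts2, Mmp9 and Adamtsl1 lie below 0 on both axes, and Timp2 lies close to 0 on the vertical axis.

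All 4 Timp genes fell in both groups, and for Timp2 and Timp4 in no.1 and Timp4 in no.2 the sign turned with spike-in scaling. Timp1, a broad inhibitor of secreted MMPs, had scaled levels of 129 and 103 in no.1 and 122 and 69.7 in no.2, against 464 and 471 in control. Each treated array lay below each control array. Timp1 was 4.05-fold lower in no.1 (log2 fold change -2.02, standard error 0.31, adjusted p = 0.00535) and 5.07-fold lower in no.2 (-2.34, standard error 0.31, adjusted p = 0.0073). Before scaling, its signal was 12358 and 8786 in no.1 and 6724 and 3964 in no.2, against 15850 and 15882 in control. With spike-in scaling Timp1 in no.1 differed by -0.08 (adjusted p = 0.781) and Timp1 in no.2 by -1.06 (adjusted p = 0.0127).

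Timp2, which besides inhibiting MMPs takes part with Mmp14 in activating pro-MMP2, had scaled levels of 164 and 144 in no.1 and 163 and 179 in no.2, against 481 and 461 in control. It was 3.07-fold lower in no.1 (log2 fold change -1.62, standard error 0.19, adjusted p = 0.0033) and 2.76-fold lower in no.2 (-1.46, standard error 0.19, adjusted p = 0.00738), and the groups did not overlap. With spike-in scaling its log2 difference was 0.32 in no.1 and -0.18 in no.2, neither called. The call in no.2 was also lost without either control array. Timp3, a matrix-bound inhibitor of ADAMTS aggrecanases as well as MMPs, had 16.2 and 22.7 in no.1 and 22.4 and 26.3 in no.2, against 114 and 119 in control. Its fall was 6.09-fold in no.1 (log2 fold change -2.61, standard error 0.24, adjusted p = 0.00184) and 4.80-fold in no.2 (-2.26, standard error 0.24, adjusted p = 0.00425). A second probe of Timp3 gave -2.45 and -2.01, and a second probe of Timp2 gave -2.01 and -1.74.

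Timp4, the least widely expressed inhibitor, was close to background. It had 0.104 and 0.0796 in no.1 and 0.0825 and 0.0766 in no.2, against 0.227 and 0.147 in control. It was well above background on both no.1 arrays, on neither no.2 array and on 1 control array. The fit called it lower in no.1 (log2 fold change -1.01, adjusted p = 0.0285) and in no.2 (adjusted p = 0.0278, with no fold stated), and the no.1 call was lost without either no.1 array or without the first control array, the no.2 call without any 1 of its 4 arrays. In RefSeq's mouse gene table Timp1, Timp3 and Timp4 each lie within a synapsin gene, Syn1, Syn3 and Syn2 in that order.

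**Figure D3:**
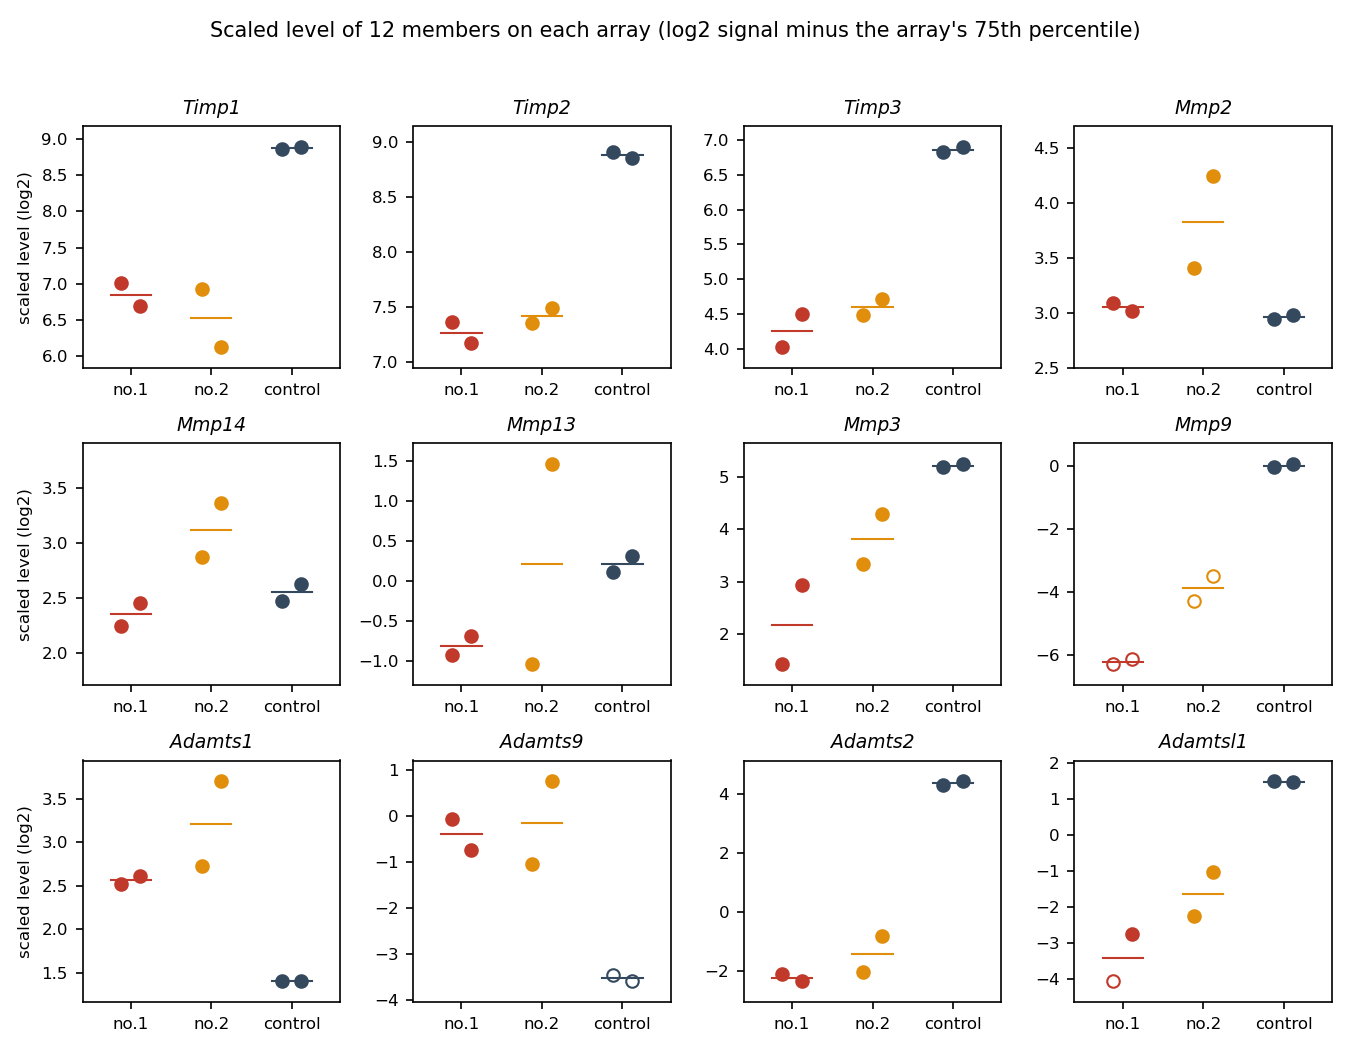
Scaled level on a log2 axis (log2 signal minus the array's 75th percentile) of 12 members on each of the 6 arrays, with a panel per gene and its own vertical range. Points are arrays, horizontal lines are group means (n = 2), and open points are arrays where the probe was not well above background. The control arrays lie close together in every panel, and the no.2 arrays of Mmp13 lie farthest apart.

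The gelatinases, which digest denatured collagen and basement membrane, did not move alike. Mmp2 (gelatinase A), the gelatinase that fibroblasts make constitutively, had scaled levels of 8.53 and 8.12 in no.1 and 10.6 and 19.0 in no.2, against 7.70 and 7.88 in control. Its log2 difference from control was 0.10 in no.1 (95% confidence interval -0.64 to 0.83, adjusted p = 0.808) and 0.87 in no.2 (0.13 to 1.60, adjusted p = 0.0758). Neither was called. Without the first no.2 array the difference in no.2 was called, and with spike-in scaling Mmp2 was higher in both groups (2.03 and 2.15). Mmp9 (gelatinase B), the inducible gelatinase, had 0.0128 and 0.0143 in no.1 and 0.0515 and 0.0894 in no.2, against 0.966 and 1.03 in control. It was well above background in control alone. Set against the dimmest signal that counts as measured on each array, Mmp9 was at least 18.6-fold lower in no.1 (adjusted p = 0.000429) and at least 11.6-fold lower in no.2 (adjusted p = 0.00194). A second Mmp9 probe was likewise above background in control only. With spike-in scaling Mmp9 was still called lower in both groups.

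Mmp9 is also a product of neutrophils and macrophages. The neutrophil marker S100a8 was well above background in control only, with scaled levels of 0.0103 and 0.0459 in no.1 and 0.0201 and 0.0669 in no.2, against 1.80 and 1.68 in control. The other neutrophil marker tested, Elane, was well above background on all 6 arrays. It was called lower in no.1 (log2 fold change -0.90, limma adjusted p = 0.0143) and not called in no.2 (-0.67). With spike-in scaling S100a8 was still called lower in both groups (-4.39 and -4.29). Elane was then called higher in no.1 (1.03) and not called in no.2 (0.62). The 5 neutrophil markers with a probe summed to 0.902 to 0.944 in no.1, 1.13 to 1.25 in no.2 and 3.48 to 3.58 in control, and the defining S100a9 was below background on all 6 arrays. The 9 macrophage markers summed to 28.8 to 32.8 in no.1, 30.0 to 36.8 in no.2 and 46.0 to 49.0 in control. Of the 4 macrophage markers measured, Csf1r alone was called lower in each group, and the other 3 were not called. With spike-in scaling, where most genes were called higher, 3 of the 4 were called higher in no.1 and 2 in no.2, and none lower. The part of either cell type in the Mmp9 result was not tested, and in such bulk RNA fewer cells of a type and less RNA per cell cannot be told apart.

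Of the membrane-type MMPs, those with a transmembrane anchor were not called in either group with percentile scaling, while the tested member with a lipid anchor fell in both. Mmp14 (MT1-MMP), a collagenase of the cell surface and the main activator of pro-MMP2, had scaled levels of 4.77 and 5.50 in no.1 and 7.33 and 10.3 in no.2, against 5.57 and 6.19 in control. Both no.1 arrays lay below both control arrays and both no.2 arrays above them. Its log2 difference was -0.20 in no.1 (95% confidence interval -0.78 to 0.39, adjusted p = 0.52) and 0.57 in no.2 (-0.02 to 1.15, adjusted p = 0.121). Spike-in scaling made it 1.74 and 1.85, both called higher. Mmp16 (MT3-MMP) had log2 differences of -0.71 in no.1 and -0.70 in no.2, neither called, and spike-in scaling turned both signs (1.22 and 0.59, neither called). Mmp15 (MT2-MMP) was below background in control, no fold can be stated for it, and it was not called in either group, though quantile normalization and the authors' deposited value table called it higher in no.1 and spike-in scaling in both. Mmp17 (MT4-MMP), which is held in the membrane by a glycolipid, had 0.418 and 0.303 in no.1 and 0.376 and 0.319 in no.2, against 1.33 and 1.48 in control. It was 3.94-fold lower in no.1 (log2 fold change -1.98, standard error 0.24, adjusted p = 0.00331) and 4.05-fold lower in no.2 (-2.02, standard error 0.24, adjusted p = 0.00565), and neither call remained with spike-in scaling (-0.04 and -0.73).

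The collagenases, stromelysins and their relatives lie side by side in the genome. In RefSeq's listing, 10 members adjoin each other on chromosome 9 in the order Mmp13, Mmp12, Mmp1b, Mmp3, Mmp1a, Mmp10, Mmp8, Mmp27, Mmp20 and Mmp7. Their promoters differ in letters from those of the other members, which is why promoters are shown here. RefSeq's promoter table (GRCm38.p6, 250 bases before to 50 bases after the gene start) held 38 promoters of 35 members. Motifs were searched on both strands, and by their letters no motif can overlap another. The AP-1 motif was TGANTCA. The GC box was GGGCGG, which is also read on the other strand. The TATA box was TATAAA. AP-1 letters were found in 8 of 38 member promoters (21.1%), against 7.81% of all 32851 promoters in the table. All 8 were among the 11 promoters of the chromosome 9 run, and 0 of the other 27 held them. A TATA box was found in 9 of those 11 and 3 of the other 27 (31.6% of all 38, against 13.6% of the whole table). The GC box was found in 0 of the 11 and 22 of the other 27 (57.9% of all 38, against 35.7% of the whole table). Each match is a match of letters and no evidence of binding.

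The promoters of Mmp3 (chr9:7445572-7445871, plus strand), Mmp10 (chr9:7502092-7502391, plus strand), Mmp1b (chr9:7387977-7388276, minus strand) and Mmp13 (chr9:7272264-7272563, plus strand) are printed 5′ to 3′ on the gene's strand as the 4 tested genes of the run, with AP-1 and TATA box letters in capitals. Counted from the gene start, the AP-1 letters begin at -46 in Mmp3, -63 in Mmp10, -93 in Mmp1b and -35 in Mmp13.
Mmp3: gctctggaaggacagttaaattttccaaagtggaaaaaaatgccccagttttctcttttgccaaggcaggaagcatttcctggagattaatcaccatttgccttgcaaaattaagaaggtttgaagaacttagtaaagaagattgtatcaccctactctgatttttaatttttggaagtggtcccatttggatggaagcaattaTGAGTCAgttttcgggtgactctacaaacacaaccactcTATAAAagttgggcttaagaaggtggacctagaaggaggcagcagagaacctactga
Mmp10: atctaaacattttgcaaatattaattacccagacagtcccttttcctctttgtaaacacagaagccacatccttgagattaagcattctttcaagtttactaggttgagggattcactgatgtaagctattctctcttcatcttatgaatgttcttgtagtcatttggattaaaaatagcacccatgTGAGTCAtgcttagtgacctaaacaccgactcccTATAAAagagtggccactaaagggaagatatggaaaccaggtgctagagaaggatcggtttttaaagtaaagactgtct
Mmp1b: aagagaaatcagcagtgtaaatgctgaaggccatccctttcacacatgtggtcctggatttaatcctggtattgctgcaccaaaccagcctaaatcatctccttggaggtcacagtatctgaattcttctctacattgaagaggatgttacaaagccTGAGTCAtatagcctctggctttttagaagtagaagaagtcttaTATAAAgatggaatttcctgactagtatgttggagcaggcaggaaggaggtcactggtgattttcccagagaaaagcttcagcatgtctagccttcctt
Mmp13: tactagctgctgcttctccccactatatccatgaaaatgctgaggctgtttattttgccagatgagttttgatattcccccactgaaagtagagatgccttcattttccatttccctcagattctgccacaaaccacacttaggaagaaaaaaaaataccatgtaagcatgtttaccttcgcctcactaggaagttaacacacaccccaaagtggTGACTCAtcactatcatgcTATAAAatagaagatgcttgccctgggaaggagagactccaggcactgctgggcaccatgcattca

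All 4 genes hold both motifs, and their calls differed, with Mmp10 and Mmp1b lower in both groups, Mmp3 lower in no.1 and Mmp13 in neither. Mmp3 (stromelysin 1), which cuts proteoglycans and activates other pro-MMPs, had scaled levels of 2.69 and 7.71 in no.1 and 10.1 and 19.5 in no.2, against 36.3 and 37.5 in control. All 4 treated arrays lay below both control arrays, and the second array was higher in each treated group. Mmp3 was 8.10-fold lower in no.1 (log2 fold change -3.02, standard error 0.54, adjusted p = 0.00805), while in no.2 its difference of -1.39 was not called (adjusted p = 0.1), though it was with the replicate number as a block (adjusted p = 0.0415). With spike-in scaling neither was called (-1.08 and -0.11). Mmp10 (stromelysin 2) had 0.910 and 1.17 in no.1 and 1.19 and 1.62 in no.2, against 2.92 and 2.79 in control. It fell in both (log2 fold change -1.47, adjusted p = 0.00665, and -1.04, adjusted p = 0.0284), the no.2 call was lost without the first no.2 array or either control array, and both signs turned with spike-in scaling (0.47 and 0.25).

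Mmp13 (collagenase 3), the main interstitial collagenase of rodents, had 0.524 and 0.621 in no.1 and 0.484 and 2.75 in no.2, against 1.08 and 1.24 in control. The 2 no.2 arrays lay on either side of the control arrays and differed from each other by 2.51 on the log2 scale, the widest gap of any tested member. No difference was called (log2 -1.02, adjusted p = 0.292, for no.1 and -0.01, adjusted p = 0.996, for no.2), and leaving out either no.2 array gave calls in opposite directions, higher at 1.25 without the first and lower at -1.26 without the second. The no.1 difference was called lower without either no.2 array. Mmp1b, a rodent relative of human interstitial collagenase, was measured on both control arrays and on 1 treated array. The fit called it lower in no.1 (log2 fold change -2.03, adjusted p = 0.00629) and in no.2, with a fall of at least 2.16-fold (adjusted p = 0.0315). The no.2 call was lost without any 1 of its 4 arrays, and neither call remained with spike-in scaling. Its probe's sequence was not used here, so signal from its close paralog Mmp1a was not tested. Of the other members of the run, Mmp1a, Mmp7, Mmp8, Mmp12 and Mmp20 were below background on all 6 arrays.

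The remaining secreted and cell-surface MMPs that were called were all lower. Mmp23, a membrane-held protease with a short catalytic chain, had scaled levels of 3.94 and 6.30 in no.1 and 9.28 and 11.4 in no.2, against 28.8 and 33.5 in control. It was 6.24-fold lower in no.1 (log2 fold change -2.64, standard error 0.29, adjusted p = 0.00275) and 3.02-fold lower in no.2 (-1.60, standard error 0.29, adjusted p = 0.0147), and the no.2 call was lost without the second no.2 array or either control array. Mmp19, a secreted MMP of broad substrate range, had 2.03 and 6.19 in no.1 and 8.61 and 10.3 in no.2, against 18.8 and 20.1 in control. It was 5.47-fold lower in no.1 (-2.45, standard error 0.50, adjusted p = 0.0114), and its difference in no.2 was -1.05 (adjusted p = 0.157), which was called without either no.1 array. Mmp28 (epilysin) had 0.647 and 0.685 in no.1 and 0.959 and 1.12 in no.2, against 3.05 and 3.16 in control, with log2 fold changes of -2.22 (adjusted p = 0.0017) and -1.58 (adjusted p = 0.00606). For these genes the treated arrays all lay below the control arrays, and none of these calls remained with spike-in scaling, where Mmp19 in no.2 turned to 0.24. Mmp11 (stromelysin 3) had 4.35 and 3.80 in no.1 and 4.68 and 6.95 in no.2, against 6.75 and 6.91 in control. It was called lower in no.1 by a narrow margin (-0.75, adjusted p = 0.0499), which was lost without any 1 of the 4 arrays compared and turned to 1.19 with spike-in scaling.

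Apart from Adamts14, the ADAMTS genes that rose belong to the group of proteoglycan-cutting enzymes. Adamts1, which cuts versican and aggrecan, had scaled levels of 5.73 and 6.14 in no.1 and 6.64 and 12.98 in no.2, against 2.66 and 2.65 in control. Every treated array lay above both control arrays. Adamts1 was 2.24-fold higher in no.1 (log2 fold change 1.16, standard error 0.33, adjusted p = 0.0313) and 3.50-fold higher in no.2 (1.81, standard error 0.33, adjusted p = 0.0157). Its no.1 call was lost without any 1 of the 4 arrays compared, with quantile normalization and in the authors' deposited value table, and its no.2 call without either control array. With spike-in scaling the rise was 3.10 in no.1 and 3.09 in no.2.

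Adamts9, a further versican-cutting enzyme, was well above background on all 4 treated arrays and on no control array. It had 0.953 and 0.599 in no.1 and 0.482 and 1.67 in no.2, against 0.0917 and 0.0829 in control. Set against the dimmest measured signal of the control arrays, it was at least 5.64-fold higher in no.1 (adjusted p = 0.00875) and at least 6.71-fold higher in no.2 (adjusted p = 0.0136). With normexp background correction, which adds an offset of 50 to signals of this size, Adamts9 was not called in either group. The no.1 call was lost without the first no.1 array and the no.2 call without the second control array. Adamts20, a relative of Adamts9, was likewise measured on the 4 treated arrays only, with 0.176 and 0.0641 in no.1 and 0.111 and 0.0993 in no.2, against 0.0264 and 0.0274 in control. Its levels lay so near the limit of measurement that no fold can be stated. The fit called it higher (adjusted p = 0.0162 in no.1 and 0.0276 in no.2), the sign turned with normexp correction (-0.45 and -0.12), and its second probe was above background on 1 array. The no.1 call of Adamts20 was lost without either control array and the no.2 call without any 1 of its 4 arrays.

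The promoter of Adamts9 (chr6:92943485-92943784, minus strand) is printed beside those of Timp1 (chrX:20869916-20870215, plus strand) and Timp3 (chr10:86300162-86300461, plus strand), as genes of these families that moved in opposite directions in both groups. Capitals mark GC box letters, and none of the 3 holds AP-1 or TATA box letters in this window.
Adamts9: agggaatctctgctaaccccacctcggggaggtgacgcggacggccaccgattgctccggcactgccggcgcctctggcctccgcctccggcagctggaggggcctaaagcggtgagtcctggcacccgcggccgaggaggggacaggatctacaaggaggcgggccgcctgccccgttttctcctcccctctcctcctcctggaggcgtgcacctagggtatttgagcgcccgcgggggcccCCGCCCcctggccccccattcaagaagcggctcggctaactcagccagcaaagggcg
Timp1: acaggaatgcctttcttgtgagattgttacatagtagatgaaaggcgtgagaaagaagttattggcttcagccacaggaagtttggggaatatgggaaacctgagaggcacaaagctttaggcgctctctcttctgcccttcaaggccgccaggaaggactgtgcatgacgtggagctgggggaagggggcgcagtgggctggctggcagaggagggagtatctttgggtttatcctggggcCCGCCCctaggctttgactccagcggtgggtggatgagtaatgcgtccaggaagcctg
Timp3: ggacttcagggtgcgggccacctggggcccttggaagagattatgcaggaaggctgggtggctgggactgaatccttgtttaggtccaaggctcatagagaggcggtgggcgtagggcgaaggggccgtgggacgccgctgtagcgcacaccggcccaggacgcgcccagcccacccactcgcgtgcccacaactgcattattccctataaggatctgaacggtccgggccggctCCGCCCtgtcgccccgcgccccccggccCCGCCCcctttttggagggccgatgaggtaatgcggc

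Adamts4 and Adamts5, the best known aggrecanases, were not called higher in no.1 with percentile scaling. Adamts4 had scaled levels of 0.979 and 1.28 in no.1 and 1.65 and 2.12 in no.2, against 1.06 and 0.996 in control. Its difference was 0.12 in no.1 (95% confidence interval -0.45 to 0.70, adjusted p = 0.686), and it was 1.82-fold higher in no.2 (log2 fold change 0.86, standard error 0.24, adjusted p = 0.042). The no.2 call was lost without the second no.2 array or either control array. With spike-in scaling Adamts4 was called higher in both groups (2.06 and 2.15). Adamts5 had 0.932 and 1.03 in no.1 and 1.26 and 2.68 in no.2, against 2.11 and 2.14 in control. It was called lower in no.1 (-1.12, standard error 0.36, adjusted p = 0.0461) and not in no.2 (-0.21, adjusted p = 0.676). The no.1 call of Adamts5 held under 5 of 17 alternative settings. It was lost without any 1 of the 4 arrays compared, with normexp correction, with quantile normalization and in the authors' deposited value table. With spike-in scaling the sign of Adamts5 turned in both groups (0.82 and 1.07).

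The procollagen N-proteinases, which cut the amino-terminal propeptide from fibrillar procollagens, split in 2 directions. Adamts2, the enzyme whose loss causes the dermatosparactic form of Ehlers-Danlos syndrome in humans, had scaled levels of 0.232 and 0.196 in no.1 and 0.244 and 0.575 in no.2, against 19.7 and 21.5 in control. No treated array came near the control arrays, and the probe was well above background on all 6. Adamts2 was 96.5-fold lower in no.1 (log2 fold change -6.59, standard error 0.41, adjusted p = 0.000673) and 54.9-fold lower in no.2 (-5.78, standard error 0.41, adjusted p = 0.00145). This was the lowest fold change of any member measured on all 6 arrays in each comparison (Mmp9 has only a bound), and it was called under all 17 alternatives in both groups, with values of -4.65 and -4.49 on the spike-in scale. With normexp correction its values were -4.02 and -3.56. The second Adamts2 probe was below background on all 6 arrays. Adamts14, which does the same cut, had 7.17 and 6.19 in no.1 and 8.24 and 7.24 in no.2, against 4.46 and 4.62 in control. It was 1.70-fold higher in no.2 (log2 fold change 0.77, standard error 0.20, adjusted p = 0.0358), and in no.1 its difference was 0.55 (adjusted p = 0.0607). The no.2 call was lost without any 1 of the 4 arrays compared and with the replicate block, and the no.1 difference was called under 11 of the 17 alternatives. Adamts3, the other enzyme of this group, was below background on all 6 arrays.

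The promoter of Adamts2 (chr11:50601835-50602134, plus strand) is printed because its gene had the largest change among the members measured on all 6 arrays. It holds 5 GC boxes, in capitals, and neither AP-1 nor TATA box letters.
Adamts2: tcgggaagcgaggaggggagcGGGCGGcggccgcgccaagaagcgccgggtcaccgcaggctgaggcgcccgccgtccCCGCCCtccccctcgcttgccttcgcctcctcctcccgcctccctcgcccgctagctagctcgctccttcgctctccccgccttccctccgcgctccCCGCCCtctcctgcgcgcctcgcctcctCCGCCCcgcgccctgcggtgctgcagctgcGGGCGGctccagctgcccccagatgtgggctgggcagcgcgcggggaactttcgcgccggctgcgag

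Of the other ADAMTS genes, Adamts7, which cuts the cartilage oligomeric matrix protein, had scaled levels of 1.11 and 1.80 in no.1 and 2.79 and 4.70 in no.2, against 3.49 and 3.54 in control. It was called lower in no.1 (log2 fold change -1.31, standard error 0.34, adjusted p = 0.0239) and had a difference of 0.04 in no.2 (adjusted p = 0.933), and its no.1 sign turned to 0.62 with spike-in scaling. The no.1 call was lost without the first no.1 array or either control array. Adamts18 was lower in both (-1.43, adjusted p = 0.00637, and -1.10, adjusted p = 0.0224), with both signs turned on the spike-in scale (0.50 and 0.19). Its no.2 call was lost without the second no.2 array or either control array. Adamts16 was measured on the no.2 arrays only, and its call as lower in no.1 rests on 4 arrays that were all below background. Adamts6 and Adamts10, relatives that act on fibrillin microfibrils, were not called in either group.

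The ADAMTSL proteins have the ancillary domains of the ADAMTS enzymes without the protease and bind to matrix such as fibrillin microfibrils. Adamtsl1 (punctin) had scaled levels of 0.0596 and 0.149 in no.1 and 0.210 and 0.496 in no.2, against 2.81 and 2.77 in control, with the first no.1 array below background. Its log2 fold change was -4.89 in no.1 (standard error 0.55, adjusted p = 0.00294) and -3.11 in no.2 (standard error 0.55, adjusted p = 0.0143), and both were called on the spike-in scale too (-2.95 and -1.83). The no.2 call was lost without either control array, as was that of Adamtsl4. Adamtsl4, a protein of the eye's zonule fibres among other sites, had 0.801 and 1.09 in no.1 and 1.62 and 0.911 in no.2, against 4.04 and 4.35 in control. It was 4.49-fold lower in no.1 (-2.17, adjusted p = 0.00524) and 3.45-fold lower in no.2 (-1.79, adjusted p = 0.0156). Adamtsl5 had 0.587 and 1.16 in no.1 and 1.35 and 1.63 in no.2, against 5.75 and 6.17 in control. It was 7.20-fold lower in no.1 (-2.85, adjusted p = 0.0034) and 4.02-fold lower in no.2 (-2.01, adjusted p = 0.0136), the no.2 call being lost without the second no.2 array or either control array. Neither Adamtsl4 nor Adamtsl5 kept a call with spike-in scaling, though their signs held (-0.23 and -0.50, -0.91 and -0.72). All treated arrays of the 3 genes lay below the control arrays.

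Both groups were compared with the same control arrays, so their calls are not independent of each other. Side by side, Adamts1, Adamts9 and Adamts20 were called higher in both, and 15 members were called lower in both. Called lower in no.1 alone were Adamts5, Adamts7, Adamts16, Mmp3, Mmp11 and Mmp19, and called higher in no.2 alone were Adamts4 and Adamts14. Neither comparison called Adamts6, Adamts10, Mmp2, Mmp13, Mmp14, Mmp15 or Mmp16. A call in a single comparison does not show a difference between no.1 and no.2, which was tested directly.

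That direct test sets medium with tamoxifen against medium without it after the same induction. No member was called higher or lower in no.1 than in no.2 by limma, and 0% of all genes were called, while 13 of the 33 members had an unadjusted p under 0.05, against 16.6% of all genes. With the replicate number as a block, which in these groups also stands for the file-name time, 0 members were called. The median log2 difference of the members was -0.64, beside -0.01 over all genes, and 28 of 33 members were lower in no.1 than in no.2, against 51% of all genes. On the spike-in scale the members' median was 0.01, and that of all genes 0.64. The 6 members of lowest p measured on all 4 arrays were Adamts7, Mmp23, Mmp28, Adamts10, Mmp14 and Adamts4, each with an adjusted p of 0.282. Adamts7 differed by -1.36 (95% confidence interval -2.20 to -0.52), Adamts10 by -1.08 (-1.89 to -0.26) and Mmp23 by -1.05 (-1.74 to -0.35). Mmp14 differed by -0.76 (-1.35 to -0.18), Adamts4 by -0.74 (-1.32 to -0.16) and Mmp28 by -0.64 (-1.11 to -0.17). In each of these 6 both no.1 arrays lay below both no.2 arrays. Timp1, Timp2 and Timp3 differed by 0.32 (-0.43 to 1.07), -0.15 (-0.63 to 0.32) and -0.34 (-0.92 to 0.23).

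The arrays of a treated group lay farther apart than the control arrays. The median absolute log2 difference between the arrays of a group was 0.38 in no.1, 0.59 in no.2 and 0.09 in control for the members, beside 0.29, 0.34 and 0.12 for all genes. Of the 33 members, 18 (54.5%) were higher on the second array in both treated groups, the array whose file name gives 48 h, against 23.0% of all genes. Over all tested members, whatever the direction in the other group, the widest gaps between arrays were 1.61 for Mmp19 and 1.52 for Mmp3 in no.1, and 2.51 for Mmp13 and 1.80 for Adamts9 in no.2. Adamtsl1 was higher on the second array by 1.32 in no.1 and 1.24 in no.2. With 1 array per file-name time in each group this has no test of its own, and the part of culture time in it was not tested.

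A protease's level relative to its inhibitors within the same array needs no scaling. The log2 ratio of each of the 29 tested proteases and protease-like members to the mean of Timp1, Timp2 and Timp3 was therefore set against the control mean. Both no.1 arrays lay above both control arrays for 18 members, below them for 7, and 4 overlapped, where 91.8% of all genes lay above and 3.36% below. In no.2, 23 lay above, 3 below and 3 overlapped, where 93.4% of all genes lay above and 2% below. The Timp genes fell more than most genes, so most ratios to them rose whatever the numerator, and the members' share above was lower than that of all genes. The members below in both groups were Adamts2, Adamtsl1 and Mmp9. For pairs picked after their values were seen, the ratio of Mmp14 to Timp2 lay 1.22 and 1.62 above the control mean in no.1 and 1.85 and 2.20 above it in no.2 (log2). The ratio of Mmp2 to Timp2 lay 1.65 and 1.78 above it in no.1 and 1.98 and 2.68 in no.2. The ratio of Adamts4 to Timp3 lay above it by 2.78 and 2.68 in no.1 and 3.06 and 3.19 in no.2. The control arrays lay within 0.11 of their mean for these 3 pairs. The ratio of Mmp3 to Timp1 was -1.92 and -0.08 in no.1 and 0.07 and 1.83 in no.2, on both sides of control.

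The substrates and partners of these enzymes were read from lists of related genes. Their counts with percentile scaling stand beside the 21.4% higher and 26.4% lower of all genes in no.1 and the 12.1% and 16.2% in no.2. Their counts with spike-in scaling stand beside 18973 higher and 422 lower of all 23060 genes in no.1, and 15031 and 534 in no.2. The 9 collagen genes tested, the main substrates of the collagenases and gelatinases, held no call in either comparison, while 3 in no.1 and 0 in no.2 had an unadjusted p under 0.05, against 56.7% and 44.9% of all genes. Of these 9, 7 were called higher in each group with spike-in scaling. Col1a1 had scaled levels of 175 and 155 in no.1 and 218 and 211 in no.2, against 178 and 183 in control. Of 6 tested proteoglycans and other ADAMTS substrates, 5 were lower in no.1 and 4 in no.2, with none higher. Decorin (Dcn), which binds collagen fibrils, had 1.27 and 2.17 in no.1 and 2.999 and 6.69 in no.2, against 21.5 and 22.5 in control (log2 fold change -3.73, adjusted p = 0.0032, and -2.29, adjusted p = 0.0172). Fibulin 2 (Fbln2) fell by 1.57 in no.1 and by 1.87 in no.2, and Comp by 4.57 and 3.78, though Comp was below background on 1 array of each treated group. Dcn is also among the fibroblast markers. With the spike-in scale, 3 of these substrates were higher and 1, Dcn, lower in no.1, and 2 were higher and 0 lower in no.2.

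Plasmin activates several pro-MMPs, and urokinase (Plau) is the protease that makes it. Plau was higher in both groups, with 8.35 and 5.32 in no.1 and 5.38 and 5.71 in no.2, against 2.89 and 2.71 in control (log2 fold change 1.25, adjusted p = 0.0122, and 0.98, adjusted p = 0.0387). Serpine2, an inhibitor of urokinase and thrombin, fell by 1.62 in no.1 and by 1.34 in no.2, and with spike-in scaling it differed by 0.32 and -0.05, neither called. In all, 1 of the 9 tested genes of plasminogen activation was higher in each group, 3 were lower in no.1 and 4 in no.2. With spike-in scaling Plau remained higher (3.19 and 2.27), and 6 genes were higher and 0 lower in no.1, and 2 higher and 1 lower in no.2.

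Of 7 tested convertases and procollagen-processing genes, none was higher, 6 were lower in no.1 and 3 in no.2. Among them Pcsk6, a furin-like convertase, fell by 3.19 and 3.54, Tll1, a tolloid-like C-proteinase, by 1.16 and 1.25, and Pcolce, its enhancer, by 1.02 in no.1 (adjusted p = 0.00994) with a difference of -0.43 in no.2 that was not called. Spike-in scaling turned this to 6 higher and 0 lower in no.1, and 3 higher and 1 lower in no.2. Of 10 tested regulators at the cell surface and in the matrix, 5 were lower in no.1 and 3 in no.2, among them basigin (Bsg), an inducer of MMPs, at -1.29 and -1.21 and Sparc at -1.23 and -0.92. Spike-in scaling left none lower and made 6 and 4 of these higher.

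Other protease families moved in part as the MMPs did. Of 8 tested ADAM genes, the membrane-anchored relatives of the ADAMTS enzymes, 1 was higher and 3 lower in no.1, and 0 higher and 3 lower in no.2. Adam33 had 0.0923 and 0.157 in no.1 and 0.171 and 0.269 in no.2, against 4.17 and 4.23 in control (log2 fold change -5.13, adjusted p = 0.000842, and -4.29, adjusted p = 0.00207). Adam8 fell by 4.76 and 4.38 and Adam15 by 1.73 and 1.48, and Adam33 and Adam8 remained lower on the spike-in scale, where 4 ADAM genes were higher and 2 lower in each group. Of 12 tested cathepsins and cystatins, the lysosomal cysteine proteases and their inhibitors, 1 was higher and 11 lower in no.1, and 1 higher and 6 lower in no.2. Cathepsin K (Ctsk), a collagen-degrading enzyme, had 4.04 and 5.25 in no.1 and 5.64 and 9.67 in no.2, against 32.7 and 33.9 in control (log2 fold change -2.86, adjusted p = 0.00272, and -2.17, adjusted p = 0.00864). On the spike-in scale 4 of them were higher and 0 lower in no.1, and 1 higher and 1, Ctsh, lower in no.2. Of 8 tested serine and other matrix proteases, 0 were higher and 5 lower in no.1 and 2 higher and 4 lower in no.2, and Htra3 fell by 3.75 and 2.05. On the spike-in scale 5 of these were higher and 1, Htra3, lower in no.1, and 2 higher and 0 lower in no.2.

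Of 14 tested genes on a list of AP-1 and ETS factors, which also holds Runx1 and Runx2, 3 were higher in each group and none lower. Of all genes, 21.4% were called higher in no.1 and 12.1% in no.2. With spike-in scaling 14 and 11 of the list were higher, where 18973 and 15031 of all 23060 genes were. Fos, a partner in AP-1, had scaled levels of 3.15 and 1.95 in no.1 and 1.79 and 1.40 in no.2, against 0.647 and 0.793 in control (log2 fold change 1.79, adjusted p = 0.00663, and 1.14, adjusted p = 0.0368). Ets2 rose by 1.11 and 1.09, Elk3 by 0.93 in no.1, and Runx2 by 1.02 in no.2. Of 14 tested cytokine and growth factor genes known to act on MMP and TIMP expression, 2 were higher in each group, 3 lower in no.1 and 0 in no.2. Tgfb2 had 1.66 and 1.18 in no.1 and 0.872 and 1.07 in no.2, against 0.237 and 0.162 in control (log2 fold change 2.83, adjusted p = 0.00237, and 2.30, adjusted p = 0.00652), and its receptor gene Tgfbr1 rose by 2.36 and 1.85. By spike-in scaling, 12 and 8 of these genes were higher and none lower. No list here was tested as a set.

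**Figure D4:**
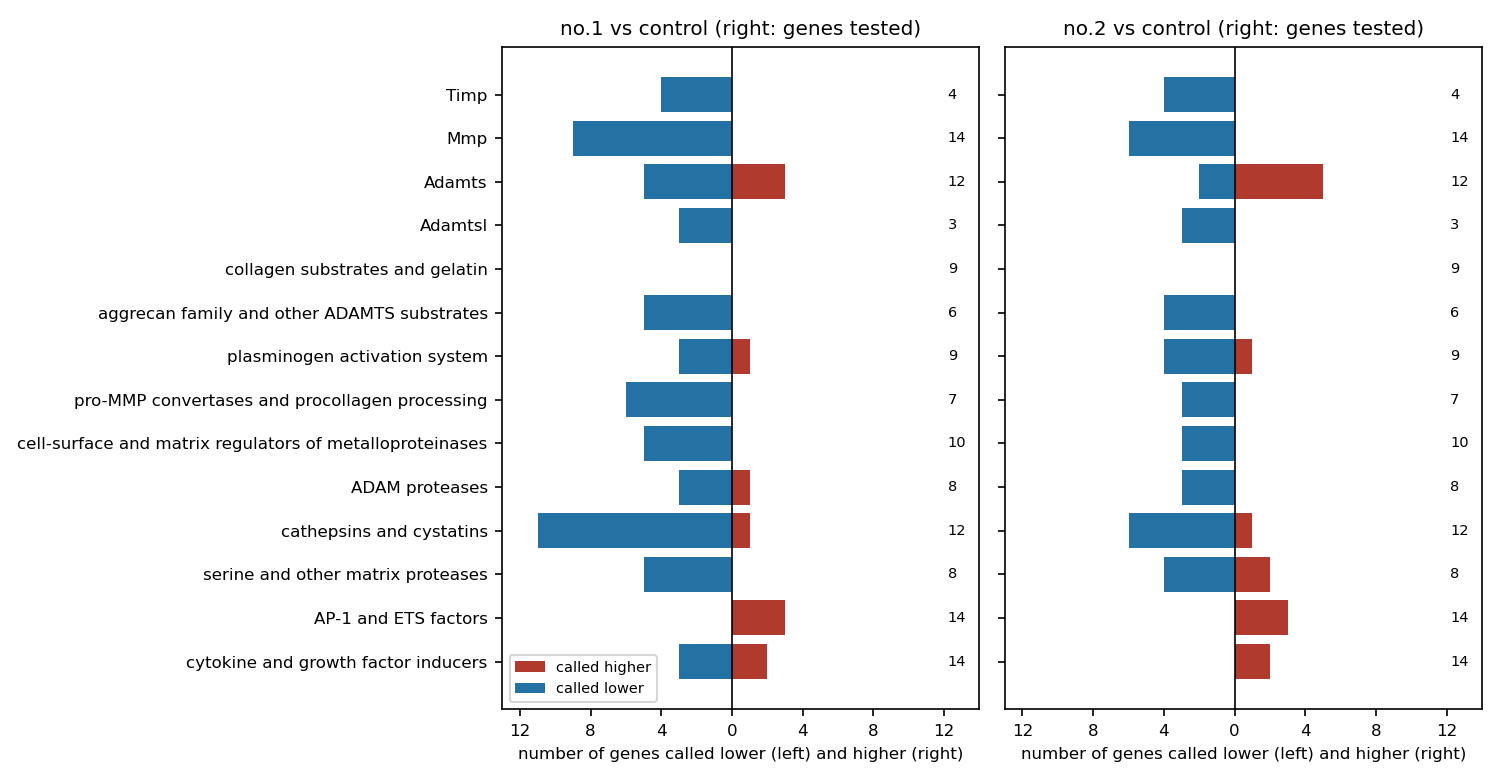
Number of tested genes called lower (blue, left of 0) and higher (red, right of 0) by limma in no.1 (left panel) and no.2 (right panel) against control, for the 4 gene families and 10 lists of related genes, with 75th percentile scaling. The number at the right of each row is the number of genes tested. The Timp and cathepsin rows are almost wholly on the lower side and the collagen row is empty on this scale, which spike-in scaling changes as stated for each list.

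Of the 17 members not tested, 16 were below background on all 6 arrays, with scaled levels from 0.0109 to 0.172 over the 17. They were Adamts3, Adamts8, Adamts12, Adamts13, Adamts15, Adamts17, Adamts19, Adamtsl2, Adamtsl3, Mmp1a, Mmp7, Mmp8, Mmp12, Mmp20, Mmp21, Mmp24 and Mmp25. Adamts15 was well above background on the second control array alone. A level below background does not show that a gene was silent. Where a tested member had a further probe measured on both arrays of a group, which held for 11 genes, its sign matched that of the brightest probe in 11 of 11 genes for no.1 and 10 of 11 for no.2, Adamts6 being the exception.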

How the data were processed

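RNA of 6 samples was read on Agilent 1-colour arrays (Cy3). The deposited intensity values are Feature Extraction output (version 12.1.1.1 per the file headers, 9.5.1.1 per the submitters' processing notes): background-subtracted and detrended within an array, not normalized between arrays. The value table deposited by the authors matches quantile-normalized intensities and served as an alternative.

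Here each array's log2 intensity was taken minus its 75th percentile over 56605 non-control probes, from the intensity values deposited by the authors. Spots of a probe were averaged, and a gene was read by its brightest probe. Accessions gave symbols for 58.29% of probes. The 23060 genes that some group had well above background on both its arrays were tested with limma 3.58.1 in R 4.3.3 (lmFit and eBayes, group means, 3 residual degrees of freedom), with Benjamini-Hochberg adjustment over all of them. "At least" folds set the bright group's mean against the dimmest signal well above background on the dim group's arrays. The small number of arrays limits precision. The fit was tested on simulated data.

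The members and lists were chosen with earlier results of these data known. Full values are given for the Timp genes, Mmp2, Mmp3, Mmp13, Mmp14 and, per comparison and direction, up to 8 called members of largest change. From each list up to 3 called genes were named, except that a withheld item is not reported here. Further members were named after their values were seen. Normexp correction used the spots' median signal, since the files hold no mean signal. Numbered replicates did not deviate together (correlations of 0.165 between no.1 and no.2, -0.04 between no.1 and control and -0.02 between no.2 and control), so they were not paired, though the no.1 and no.2 arrays of a number share the time in their file names.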

Additional observations from a re-analysis of the deposited data

Results flagged for a closer look

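Mmp14 stood out because, with percentile scaling, both no.1 arrays lay below both control arrays while both no.2 arrays lay above them. With spike-in scaling it was called higher than control in both groups (1.74 and 1.85), and no.1 minus no.2 was -0.11. With normexp correction its no.1 difference from control was 0.26. With percentile scaling Mmp14 differed by -0.76 (log2, no.1 minus no.2). The difference did not pass limma's test of no.1 against no.2 (adjusted p = 0.282), and no cause was tested.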

How the results depend on the processing

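Of 17 alternatives, spike-in scaling moved most results, by adding a constant to every log2 difference. In no.1 it gave 12 higher and 3 lower members, and in no.2 12 higher and 5 lower, with 18973 higher and 422 lower calls over all genes in no.1, against 4940 and 6081. With it, the sign of 13 members turned in no.1, 8 in no.2 and 12 between no.1 and no.2. Among them, the no.1 differences from control turned to 1.497 for Adamts10, 0.62 for Adamts7, 0.92 for Mmp13, 1.74 for Mmp14, 0.32 for Timp2 and 0.93 for Timp4. Those of no.2 turned to 1.28 for Mmp13, 0.24 for Mmp19 and 0.0872 for Timp4. Those between no.1 and no.2 turned to 0.0072 for Adamts1, 0.44 for Adamts14, 0.40 for Adamts9, 0.27 for Adamtsl4, 0.0131 for Mmp28, 0.50 for Timp2 and 0.31 for Timp3.

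Averaging the control arrays, which leaves fewer samples, gave 1 higher in no.1 and 0 higher and 6 lower in no.2. Without the filter on dim probes, more genes enter near background. Of 50 members, 32 were then lower in no.1, 23 in no.2 and 7 in no.1 against no.2. Of all 45616 genes, 19758, 13446 and 7776 were lower in the same order. The stricter filter gave 3 of 24 members higher in no.2, where 2325 of 17912 genes were. Normexp correction turned Adamts20 to -0.45 and Mmp14 to 0.26 in no.1, and Adamts20 to -0.12 and Mmp13 to 0.17 in no.2. Between no.1 and no.2 it turned Adamts14 to 0.0123, Adamts20 to -0.33, Mmp17 to -0.18, Timp2 to 0.13 and Timp4 to -0.28. Mmp13 in no.2 was 0.0011 with quantile normalization and 0.0911 with the percentile over probes detected on all arrays, which gave -0.0121 for Adamts20 between no.1 and no.2. The causes were not tested.

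Leaving out each array in turn gave 1 to 4 higher and 16 to 22 lower in no.1, and 0 to 6 higher and 6 to 16 lower in no.2. The lowest counts of no.2 came without either control array for lower calls and without the second control array for higher ones. Over these fits Adamts4 in no.1 ranged from -0.0696 to 0.32, and in no.2 Adamts7 ranged from -0.33 to 0.42 and Mmp13 from -1.26 to 1.25. Between no.1 and no.2, Adamts20 ranged from -0.71 to 0.74, Adamts9 from -1.15 to 0.65, Adamtsl4 from -0.80 to 0.0377, Mmp13 from -2.27 to 0.24, Mmp17 from -0.19 to 0.27 and Timp1 from -0.0823 to 0.73. A lone array left in a group is assumed to vary like the other groups.

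With the replicate number as a block, 3 members were higher and 20 lower in no.1, 4 higher and 16 lower in no.2, and 0 either way between no.1 and no.2. The first and second arrays of no.1 and no.2 also share the time in their file names, and those of control share only the number. Values of members below background in a group are fitted values, not measured folds.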
